A study of Mus musculus with 6 samples.

Results

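The 7 genes of the NMDA receptor subunits, Grin1, Grin2a, Grin2b, Grin2c, Grin2d, Grin3a and Grin3b, were followed through 6 libraries of hippocampal chromatin. They were taken by name from 37273 annotated genes of the mouse genome mm9 (GENCODE), of which 22367 are protein-coding, and reads were counted over each gene body, from the first transcription start site (TSS) to the last transcription termination site (TTS), and over the promoter, the 5 kb before the TSS. The rule itself uses no measured value. The mice were of strain C57/BL6 and 6 months of age by the labels, with no transgene or deletion named in either group. Fear-conditioned mice (FC) received foot shocks in a context over repeated sessions and were returned to it for a memory test, and control mice (CON) were placed in the same context without shock. Whole hippocampus was taken shortly after the test, and each group has 1 library immunoprecipitated with an antibody to histone H4 acetylated at lysine 5 (H4K5ac-ChIP), 1 with immunoglobulin (IgG-IP) and 1 of unprecipitated DNA (input). There are no replicate libraries, so no test between groups was made, and every interval below is an exact 95% interval that covers counting error only.

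NMDA receptors are glutamate-gated cation channels that open only when glutamate and a coagonist are bound and the membrane is depolarised, which lets calcium into the spine and starts the synaptic changes that contextual memory needs. GluN1, encoded by Grin1, is obligatory and binds the coagonist glycine or D-serine. The GluN2 subunits (Grin2a to Grin2d) bind glutamate and set the kinetics of the channel, with GluN2B prominent early in development and GluN2A rising with maturation. The GluN3 subunits (Grin3a, Grin3b) bind glycine and lower calcium entry. H4K5ac is a mark of open, transcribed chromatin, spread over gene bodies as well as promoters.

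The H4K5ac-ChIP libraries held 31605738 (FC) and 35962226 (CON) reads, the IgG-IP libraries 14549689 and 16491741, and the input libraries 45673239 and 35493806. Between 11.5% and 17.8% of a library's reads had the same place and orientation as an earlier one. Densities are given as RPKM, a read count scaled to the length of the region and to the reads of the library. Whole tissue mixes neurons and glia, so fewer cells of a type and less signal per cell cannot be told apart. Of 6 neuronal genes 5 were at least 1.5 times above IgG-IP over the gene body in both groups, beside 47.7% of protein-coding genes, Rbfox3 by 1.25 (FC) and 0.95 (CON) on the log2 scale. Of the glial genes, 3 of 5 of oligodendrocytes, 3 of 5 of astrocytes and 2 of 5 of microglia did so. The oligodendrocyte gene Mbp gave 1.81 and 1.43. Of genes not used in brain, Alb and Apob of liver lay below IgG-IP, at -1.04 and -0.83 and at -1.24 and -1.02, but Myh6 of heart muscle lay above it, at 0.98 and 0.58.

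Grin2b carried the densest H4K5ac of the family over its whole body and Grin3a the sparsest. Grin2b (chr6:135679844-136123529, minus strand, 443.7 kb) was covered by 10215 (FC) and 12700 (CON) H4K5ac-ChIP reads, or 0.728 RPKM (0.714 to 0.743) and 0.796 RPKM (0.782 to 0.810). Its IgG-IP density was 0.423 and 0.442 RPKM and its input density 0.523 and 0.474 RPKM. The H4K5ac-ChIP libraries were thus above both controls of their group, and among protein-coding genes Grin2b ranked at percentile 73.0 in FC and 83.6 in CON. Its ranks in the controls were similar or higher in part, at 79.0 and 81.2 for IgG-IP and at 52.2 and 86.7 for input.

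Grin2a, the other large GluN2 gene expressed in the adult hippocampus (chr16:9577803-9995014, minus strand, 417.2 kb), came next. Its H4K5ac density was 0.639 RPKM (0.625 to 0.652) in FC and 0.683 RPKM (0.670 to 0.696) in CON, against 0.487 and 0.495 RPKM in IgG-IP and 0.512 and 0.440 RPKM in input. The intervals of Grin2a and Grin2b did not overlap in either group. Grin2a ranked at percentile 61.7 in FC and 69.9 in CON for H4K5ac, and higher, at 91.5 and 92.2, for IgG-IP.

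Grin1 (chr2:25146701-25174707, minus strand, 28.0 kb) had 0.617 RPKM of H4K5ac (0.566 to 0.671) in FC and 0.557 RPKM (0.512 to 0.605) in CON. Its IgG-IP density was 0.267 RPKM (0.220 to 0.323) in FC and 0.403 RPKM (0.347 to 0.465) in CON, intervals that did not overlap, and its input density was 0.567 and 0.390 RPKM. In this gene the controls differed more between groups than H4K5ac-ChIP did.

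Grin2c (chr11:115110483-115128557, minus strand, 18.1 kb), whose product is best known from the cerebellum, had 0.515 RPKM (0.457 to 0.577) of H4K5ac in FC and 0.503 RPKM (0.450 to 0.561) in CON. Its IgG-IP density was 0.236 and 0.309 RPKM. Its FC input, at 0.663 RPKM, exceeded its H4K5ac, whereas its CON input was 0.366 RPKM. Grin2d (chr7:53087253-53126298, minus strand, 39.0 kb), known from interneurons, had 0.545 RPKM (0.505 to 0.588) in FC and 0.511 RPKM (0.475 to 0.550) in CON. Its IgG-IP gave 0.343 and 0.353 RPKM and its input 0.604 and 0.396 RPKM, so that here too the FC input was the densest library.

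Grin3a (chr4:49674483-49858616, minus strand, 184.1 kb) was lowest, at 0.442 RPKM (0.425 to 0.459) in FC and 0.459 RPKM (0.442 to 0.475) in CON. Its IgG-IP density was nearly as high, 0.423 and 0.415 RPKM, and its input was 0.356 and 0.418 RPKM. Grin3b (chr10:79433460-79439935, plus strand, 6.5 kb), whose subunit is mainly found in motor neurons, had only 118 and 137 H4K5ac reads, or 0.577 RPKM (0.477 to 0.690) and 0.588 RPKM (0.494 to 0.695). Its IgG-IP gave 0.265 and 0.215 RPKM and its input 0.565 and 0.283 RPKM.

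In order of H4K5ac density the genes ran Grin2b, Grin2a, Grin1, Grin3b, Grin2d, Grin2c and Grin3a in FC, and in CON Grin3b and Grin1 changed places. Beside the step from Grin2b to Grin2a, the intervals of neighbours in FC overlapped at every step, and in CON those of Grin2a and Grin3b, Grin3b and Grin1, Grin1 and Grin2d, Grin2d and Grin2c, and Grin2c and Grin3a did so too. The median over the 7 genes was 0.577 RPKM in FC and 0.557 RPKM in CON, beside 0.549 and 0.541 RPKM over all protein-coding genes.

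**Figure D1:**
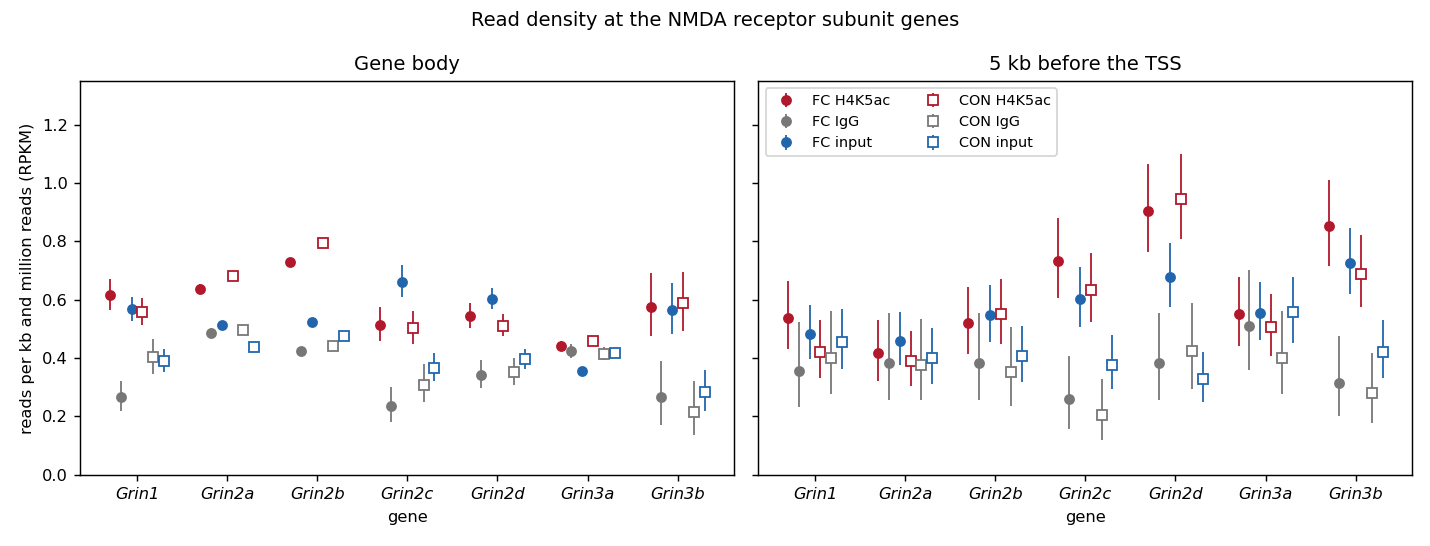
Read density (RPKM, linear axis from 0) over the gene body and the 5 kb promoter of each gene. Red, grey and blue are H4K5ac-ChIP, IgG-IP and input, filled circles FC and open squares CON, and bars are 95% Poisson intervals of 1 library each. Gene body H4K5ac is highest in Grin2b (0.728 and 0.796 RPKM) and lowest in Grin3a (0.442 and 0.459 RPKM).

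Set against IgG-IP, 3 of the 7 gene bodies were at least 1.5 times denser in H4K5ac-ChIP in both groups, Grin2b, Grin2c and Grin3b. Of all protein-coding genes with 20 reads or more, 47.7% met this, so the share of the family was close to the background. None of the 7 was at or below the inverse ratio, which 10.7% of genes were. Grin2b stood above IgG-IP by 0.78 (0.72 to 0.84) in FC and 0.85 (0.79 to 0.90) in CON on the log2 scale. Grin2c gave 1.13 (0.73 to 1.55) and 0.70 (0.37 to 1.05), and Grin3b 1.12 (0.49 to 1.80) and 1.45 (0.81 to 2.15). The ratios of the last 2 rest on few mock reads, 62 and 92 in Grin2c and 25 and 23 in Grin3b. Another annotated gene, ORF61, covers 34.6% of the Grin3b body, and reads there cannot be assigned to one of them.

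Grin1 passed 1.5 times in FC alone, at 1.21 (0.91 to 1.52) against 0.47 (0.23 to 0.72) in CON. Its IgG-IP density was lower in FC than in CON by a log2 ratio of -0.59 (-0.94 to -0.24), while its H4K5ac-ChIP differed by 0.15 (-0.03 to 0.32). Grin2d gave 0.67 and 0.54 and Grin2a 0.39 and 0.46. Grin3a was barely above its mock library, at 0.06 (-0.04 to 0.16) in FC and 0.14 (0.05 to 0.24) in CON.

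Against input, 0 of the 7 gene bodies reached 1.5 times in both groups, where 18.9% of genes did. Grin2b was the highest of them in FC, at 0.48 (0.44 to 0.52), and had 0.75 (0.71 to 0.79) in CON. Grin2a gave 0.32 and 0.63, and Grin3a 0.31 and 0.14. Grin3b gave 0.03 (-0.32 to 0.38) in FC and 1.06 (0.62 to 1.51) in CON, the highest value of the family in CON, and Grin1 0.12 and 0.51. Grin2d gave -0.15 and 0.37. Grin2c was below input in FC at -0.36 (-0.57 to -0.16) and above it in CON at 0.46 (0.21 to 0.71).

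The family spans a wide range of base composition. Grin3a has the lowest share of G and C, followed by 43.4% in Grin2b and 43.5% in Grin2a, 52.2% in Grin1 and Grin2d, 55.2% in Grin2c and 58.6% in Grin3b. Among genes with the same share of G and C, in steps of 1%, Grin2b lay at percentile 63.3 in FC and 76.7 in CON for H4K5ac over IgG-IP, above the median of its class in both groups. Grin2d lay at percentile 13.6 and 18.9 and Grin2c at 23.8 and 14.0. So Grin2c and Grin2d, which passed or approached 1.5 times over IgG-IP, were below most genes of their own GC content, and the part of base composition in the ratios was not tested further.

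The genes also differed in where the signal lay. Each body was divided into 4 segments of equal length from the TSS to the TTS, a division added after the means had been seen. In Grin2b, H4K5ac was denser in each successive segment. They had 0.562, 0.657, 0.814 and 0.882 RPKM in FC, and 0.632, 0.746, 0.829 and 0.978 RPKM in CON. Over IgG-IP the log2 ratio went from 0.42 (0.30 to 0.55) in the first segment to 0.98 (0.87 to 1.10) in the last in FC, and from 0.60 (0.49 to 0.72) to 1.11 (1.00 to 1.22) in CON. IgG-IP itself lay between 0.408 and 0.477 RPKM in all segments of both groups.

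Grin3a held its H4K5ac at the 3′ end. The segments before the last had 0.355, 0.373 and 0.313 RPKM in FC and 0.407, 0.402 and 0.336 RPKM in CON, none of them above the IgG-IP density of the same stretch beyond its interval. The last segment had 0.727 RPKM in FC and 0.691 RPKM in CON, or 0.73 (0.55 to 0.92) and 0.54 (0.36 to 0.71) over IgG-IP on the log2 scale. In FC the 2 middle segments were below IgG-IP, at -0.27 (-0.48 to -0.07) and -0.34 (-0.56 to -0.12), and in CON the intervals of all segments before the last held 0.

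Grin1 was also densest in its last segment, but in FC its earlier segments were already above IgG-IP beyond their intervals. In FC its segments had 0.502, 0.560, 0.533 and 0.899 RPKM, and in CON 0.445, 0.508, 0.552 and 0.735 RPKM. The last segment of Grin1 is overlapped by E130003G02Rik, an annotated gene on the other strand that covers 27.5% of the Grin1 body, and ChIP reads of double-stranded DNA cannot be assigned to one of them. Grin2d ran the other way, from 0.668 RPKM in the first segment to 0.421 RPKM in the last in FC and from 0.601 to 0.479 RPKM in CON. Grin2a was nearly level, at 0.583, 0.652, 0.703 and 0.619 RPKM in FC and 0.611, 0.697, 0.748 and 0.677 RPKM in CON.

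**Figure D2:**
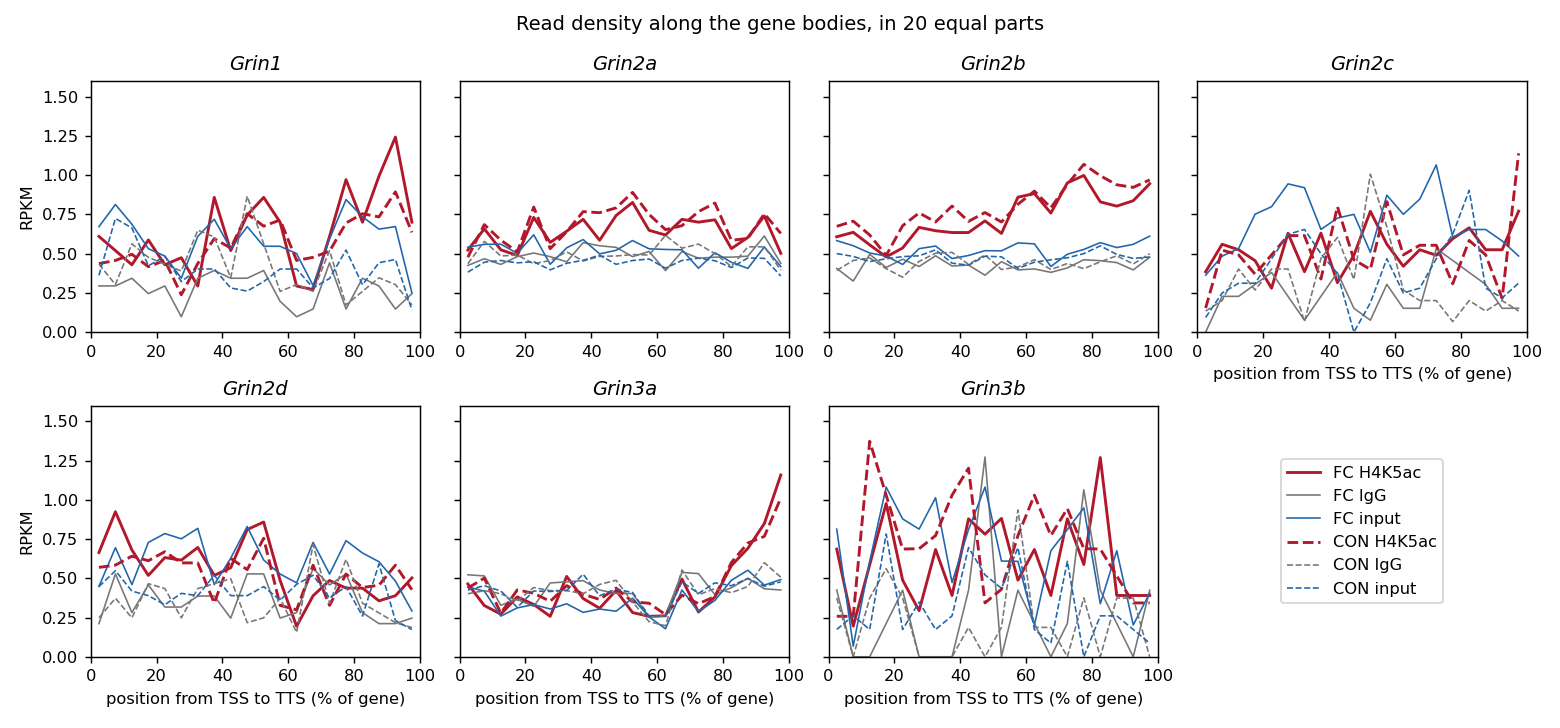
Read density (RPKM) in 20 equal parts of each gene body, from the TSS at 0% to the TTS at 100% of its length. Red is H4K5ac-ChIP, grey IgG-IP and blue input, with solid lines for FC and dashed lines for CON. The red lines of Grin2b dip before they climb, are highest in part 16 of the 20 (0.998 RPKM in FC and 1.07 RPKM in CON) and are lower in the parts after it, and those of Grin3a rise in its last segment (0.727 and 0.691 RPKM), while the lines of Grin3b rest on 118 and 137 reads in all.

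The last segment was denser than the first by at least 1.2 times in both groups in 4 of the 7 genes, Grin1, Grin2b, Grin2c and Grin3a. Among 12369 protein-coding genes with enough reads, 20.9% were, and 22.8% were lower in the last segment, as Grin2d was. Grin3b had too few reads to be among them, 28 and 29 in its first and last segments in FC and 35 and 26 in CON. The log2 ratio of last over first segment in Grin3a came to 1.04 (0.88 to 1.19) for FC and 0.77 (0.63 to 0.90) for CON, at percentiles 97.4 and 93.6 of these genes. In Grin2b it was 0.65 (0.57 to 0.73) and 0.63 (0.56 to 0.70), at percentiles 90.8 and 90.2. In Grin1 it was 0.84 (0.50 to 1.19) and 0.72 (0.38 to 1.08). In Grin2c it was 0.50 (0.01 to 0.99) and 0.43 (-0.04 to 0.91), and Grin2c no longer passes in both groups with either control taken off. Its ratio less the input ratio came to -0.34 in CON, where input itself gave 0.77 (0.21 to 1.34), and less the IgG-IP ratio to 0.05 in FC. Grin2a gave 0.09 (0.00 to 0.18) and 0.15 (0.07 to 0.23), and Grin2d -0.66 (-0.99 to -0.34) and -0.33 (-0.63 to -0.03).

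The controls had smaller slopes in Grin2b and Grin3a. In Grin2b the IgG-IP libraries gave 0.09 and 0.13 and the input libraries 0.14 and 0.07. In Grin3a IgG-IP gave 0.10 and 0.24 and input 0.40 and 0.22, so part of the slope was present in unprecipitated DNA. Less the input ratio, Grin3a kept 0.64 in FC and 0.55 in CON. Grin1 had ratios of -0.38 and -0.73 in IgG-IP. In Grin2d, which had less H4K5ac at its end, IgG-IP gave -0.23 and -0.08 and input -0.16 and -0.29. Less the input ratio Grin2d kept -0.51 in FC but came to -0.04 in CON, where it was no longer lower by 1.2 times. With 1 read per position and strand its CON ratio was -0.30 (-0.62 to 0.02), an interval that held 0. With only the bases outside other annotated genes counted, Grin2b kept 0.63 in both groups and Grin3a 1.03 and 0.75. Grin1 and Grin3b have no such value, because fewer than 20 reads were left in a segment. The rise in Grin1 could thus not be checked apart from E130003G02Rik.

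The other ionotropic glutamate receptor genes showed both directions. Grik3, a kainate receptor gene, had a last over first segment ratio of 0.70 (FC) and 0.63 (CON), close to Grin2b, and the AMPA receptor gene Gria1 had 0.40 and 0.26. Grik2 gave -0.78 and -0.68 and Grid1 -0.96 and -0.78. In all, 2 of the 11 AMPA, delta and kainate genes were higher in the last segment by 1.2 times in both groups and 3 were lower, Grik2, Grid1 and Gria3, the last at -0.30 and -0.37. In Grid1 the input ratio was -0.87 in FC and -0.22 in CON.

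**Figure D3:**
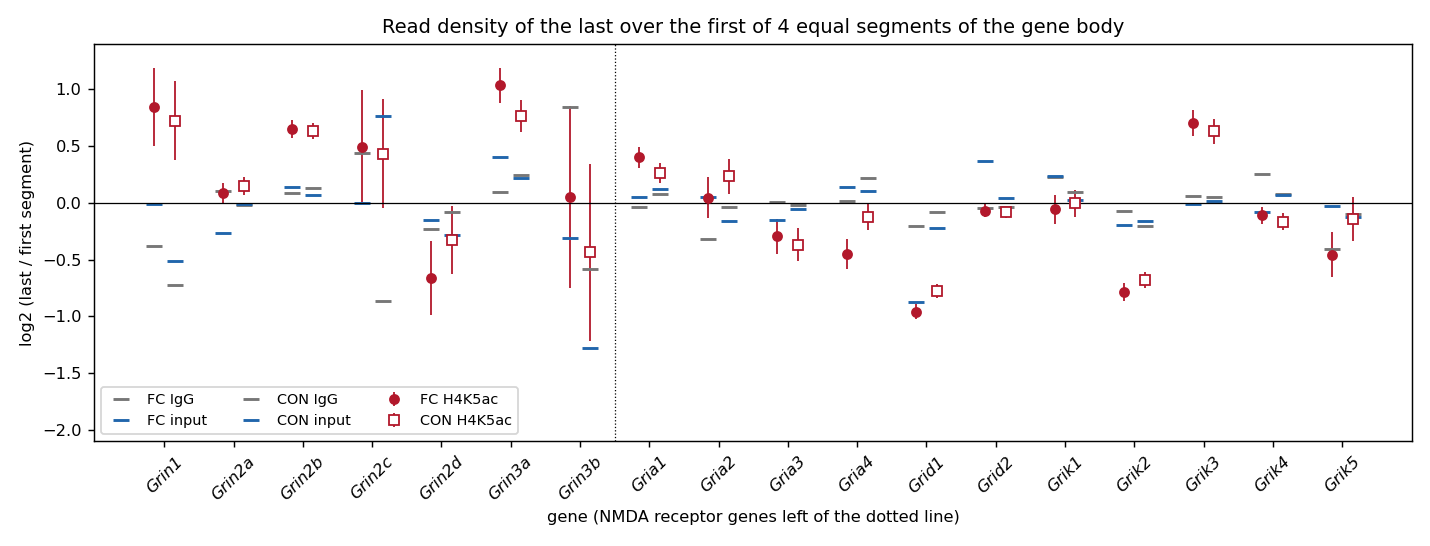
Log2 ratio of the read density of the last over the first of 4 equal segments of the gene body for the 7 NMDA receptor genes and 11 AMPA, delta and kainate receptor genes. Red points are H4K5ac-ChIP (filled FC, open CON) with 95% intervals, and grey and blue dashes are IgG-IP and input, left dash FC and right dash CON. Grin1, Grin2b and Grin3a lie above 0 in both groups with intervals clear of it, and Grin2d lies below.

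The gene bodies were then cut into windows of 2 kb from the TSS. A window was called rich when H4K5ac-ChIP was at least 2 times the IgG-IP density, with 1 read added to each count, and at least 2 times the mean density of the genome, in both groups. Of 566 windows in the 7 genes 31 were rich (5.48%), beside 9.24% of all windows in protein-coding genes. Grin2b held 25 of them in 221 windows (11.3%), Grin3a 3 in 92, Grin2a 2 in 208 and Grin1 1 in 14, and there was none in the 9 windows of Grin2c, the 19 of Grin2d and the 3 of Grin3b. With input in place of IgG-IP, Grin2b had 11 and Grin3a 2, and the other genes none, in all 2.30% beside 4.14% of all windows. With windows of 1 kb 6.17% were rich beside 7.78%, and with 1 read per position and strand 4.06% beside 8.01%. With a factor of 3 none was, beside 1.16%. The kainate genes had 71 of 895 windows (7.93%) and the AMPA and delta genes 33 of 1631 (2.02%).

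The rich windows of Grin2b were unevenly placed. From 254 kb to 440 kb after the TSS there were 20 of the 25, and the longest runs were 4 kb. The window with the highest mean of both groups began 336 kb after the TSS (chr6:135785530-135787529), with 1.44 RPKM in FC and 1.32 RPKM in CON, against 0.344 and 0.485 RPKM in IgG-IP and 0.427 and 0.338 RPKM in input. All 3 rich windows of Grin3a lay between 156 kb and 182 kb after the TSS, and the densest, chr4:49680617-49682616, had 1.39 and 1.14 RPKM of H4K5ac. The phosphatase gene Ppp3r2 is annotated within the last segment of Grin3a, and the gene Rnf20 follows it after the TTS.

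The 300 bases with the most H4K5ac-ChIP reads inside each of those windows are shown, since those windows were the densest rich ones of Grin2b and of Grin3a. They were found from the reads, so their counts are a description. Both lie in introns, read 5′ to 3′ along the gene's minus strand of mm9, in lower case with no part marked. The Grin2b stretch is chr6:135786200-135786499 and the Grin3a stretch is chr4:49681287-49681586.
Grin2b intron: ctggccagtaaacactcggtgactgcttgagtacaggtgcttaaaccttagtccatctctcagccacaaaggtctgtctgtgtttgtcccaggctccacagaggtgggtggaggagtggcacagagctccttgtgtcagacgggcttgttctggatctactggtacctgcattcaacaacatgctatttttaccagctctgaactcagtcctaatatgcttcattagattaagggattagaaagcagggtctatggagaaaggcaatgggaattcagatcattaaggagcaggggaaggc
Grin3a intron: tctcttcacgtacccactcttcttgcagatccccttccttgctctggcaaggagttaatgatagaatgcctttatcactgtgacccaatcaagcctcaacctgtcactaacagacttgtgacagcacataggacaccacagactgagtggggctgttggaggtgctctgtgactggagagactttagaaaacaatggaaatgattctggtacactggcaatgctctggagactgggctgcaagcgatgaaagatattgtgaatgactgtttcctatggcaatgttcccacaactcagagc

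The Grin2b stretch held 21 (FC) and 31 (CON) reads of H4K5ac-ChIP, with 1 and 5 in IgG-IP and 5 and 2 in input. The Grin3a stretch held 30 and 16, with 2 and 6 in IgG-IP and 12 and 4 in input. Neither is a CpG-rich element, as the first has 48.3% G and C with 2 CG dinucleotides and the second 47.3% with 2.

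Exons and introns of Grin2a, Grin2b and Grin3a had overlapping intervals in H4K5ac over IgG-IP in both groups. Grin2b introns gave 0.79 (0.73 to 0.85) in FC and its 8172 exonic bases 0.44 (0.06 to 0.84), with 0.86 (0.80 to 0.91) and 0.55 (0.17 to 0.93) in CON. In H4K5ac density Grin2a exons were sparser than introns, at 0.478 against 0.641 RPKM in FC and 0.357 against 0.687 RPKM in CON. Its exons were sparser in IgG-IP too, at 0.208 against 0.490 RPKM and 0.286 against 0.498 RPKM. Grin3a exons were denser in H4K5ac, at 0.557 against 0.431 RPKM and 0.541 against 0.451 RPKM. Grin2b exons had 0.867 against 0.726 RPKM and 0.834 against 0.795 RPKM, with intervals that overlapped in CON alone. Over IgG-IP, Grin2c exons gave 1.74 (0.83 to 2.80) against 0.95 (0.50 to 1.42) in introns in FC and 1.71 (0.87 to 2.68) against 0.44 (0.07 to 0.83) in CON. The intervals of the CON values did not overlap, and those of the FC values did. The H4K5ac densities of Grin2c were alike, at 0.503 (exons) and 0.519 RPKM (introns) in FC and 0.513 and 0.499 RPKM in CON. The gap lay in IgG-IP, at 0.150 against 0.269 RPKM in FC and 0.156 against 0.367 RPKM in CON. Its exons held only 11 and 13 IgG-IP reads.

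The surroundings of the genes divided the family again. The 30 kb before and the 30 kb after each gene were counted together as its flanks, a measure added after the gene bodies had been seen. Grin2a and Grin2b were denser than their flanks, which held no other annotated gene in Grin2a and only Gm17614 in Grin2b. Grin2a flanks had 0.419 RPKM in FC and 0.444 RPKM in CON, and its body was above them by 0.61 (0.50 to 0.71) and 0.62 (0.53 to 0.72) on the log2 scale. Grin2b was above its flanks by 0.47 (0.38 to 0.57) and 0.41 (0.32 to 0.49). In both genes IgG-IP and input were level, between -0.10 and 0.10.

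The other genes were sparser than their flanks, though for Grin3b in CON the interval held 0. Grin2c flanks, with Fdxr and Fads6 on one side and Tmem104 on the other, had 0.996 RPKM in FC and 0.920 RPKM in CON, and the body of Grin2c was below them by a log2 ratio of -0.95 (-1.13 to -0.77) and -0.87 (-1.04 to -0.70). This placed Grin2c at percentiles 3.89 and 5.10 of protein-coding genes, while its input ratio was 0.01 and -0.18 and its IgG-IP ratio -0.40 and -0.10. Grin2d was at -0.44 (-0.58 to -0.31) and -0.46 (-0.59 to -0.33), and Grin1 at -0.30 (-0.45 to -0.16) and -0.41 (-0.55 to -0.27). IgG-IP gave -0.09 and -0.08 in Grin2d, and in Grin1 -0.29 (-0.62 to 0.03) in FC, as low as H4K5ac, and -0.04 in CON. Input gave -0.07 and 0.04 in Grin2d and -0.11 and -0.16 in Grin1. Grin3a, at -0.28 and -0.29, was below flanks made of a sparse stretch before its TSS and the dense Rnf20 after its TTS, and its input was lower too, at -0.29 and -0.21.

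By at least 1.2 times in both groups, 2 of the 7 genes were above their flanks, where 31.6% of protein-coding genes were, and 4 were below, where 15.2% were. Those below were Grin1, Grin2c, Grin2d and Grin3a. Grin3b gave -0.29 (-0.57 to -0.02) and -0.19 (-0.46 to 0.06). Its IgG-IP gave -0.04 and -0.53 and its input -0.10 and -0.38. Every 10 kb step of the flanks of Grin1, Grin2c, Grin2d and Grin3b overlapped another annotated gene. The part of such neighbours in these ratios was not tested.

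**Figure D4:**
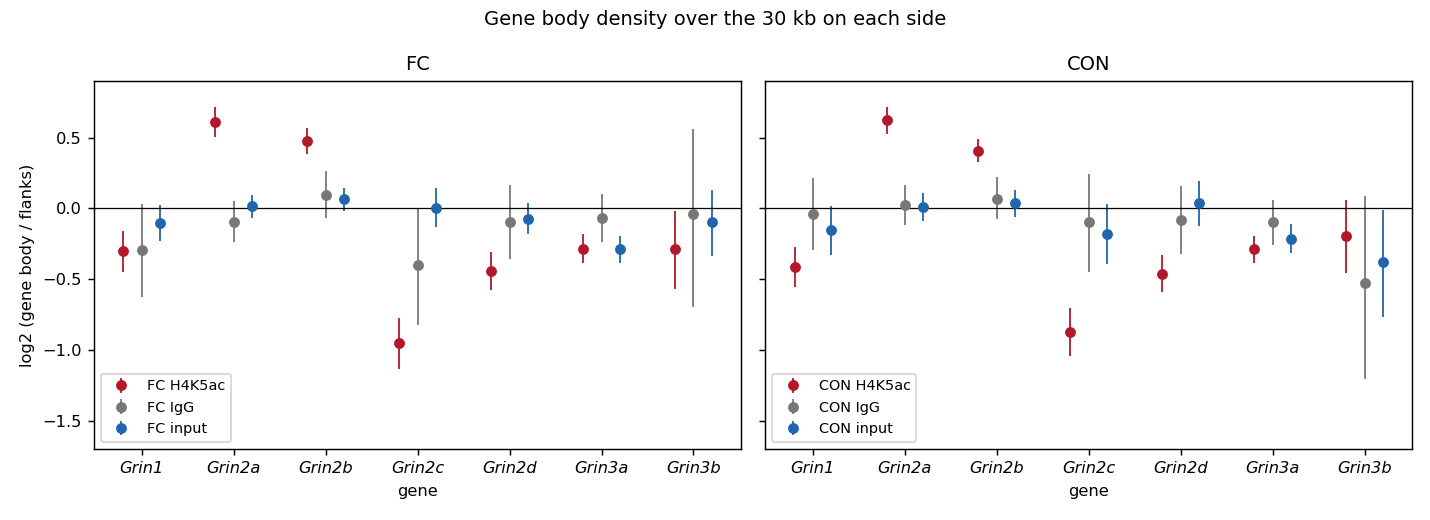
Log2 ratio of the gene body density over the density of the 30 kb on each side, for FC (left) and CON (right). Red, grey and blue are H4K5ac-ChIP, IgG-IP and input, and bars are 95% intervals. H4K5ac of Grin2a and Grin2b lies above 0 and that of Grin2c furthest below (-0.95 and -0.87).

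All 7 promoters had more than 50 H4K5ac-ChIP reads in both groups, as 71.4% of protein-coding promoters did (72.6% in FC and 75.3% in CON). The study used this number of reads to mark promoters above average, but with promoters of 5 kb counted as here the mean was 88.7 reads in FC and 97.0 in CON (median 88 and 98), so passing it does not mark a promoter as above average. With a promoter of 2 kb, where the median promoter had 40 and 43 reads, Grin1 and Grin2d passed in FC and Grin2c and Grin2d in CON, 2 of 7 each beside 36.1% and 40.7% of promoters. The study also set a rule for promoters differing towards FC, more than 50 reads in FC and 40 or fewer in CON, which is applied here in the opposite direction as well. With 5 kb none of the 7 met it either way, beside 0.259% towards FC and 1.09% towards CON. With 2 kb none met it towards FC (1.02%), and Grin2c, with 35 reads in FC and 51 in CON, met it towards CON (2.63%). The densities ran from 0.418 RPKM in Grin2a to 0.905 RPKM in Grin2d in FC and from 0.389 to 0.945 RPKM in the same genes in CON.

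Grin2c, Grin2d and Grin3b were at least 1.5 times above IgG-IP in both groups at the promoter, 3 of 7 beside 42.9% of all promoters. Grin2c gave 1.49 (0.78 to 2.27) in FC and 1.62 (0.88 to 2.45) in CON, Grin2d 1.23 and 1.16, and Grin3b 1.43 and 1.31. Each of these promoters lies largely within a neighbouring gene, 84.4% of it within Fdxr for Grin2c, 63.1% within Kdelr1 and a U4 RNA gene for Grin2d and 70.6% within Wdr18 for Grin3b. Signal of the neighbour and of the promoter cannot be told apart there. The promoters of Grin1, Grin2a and Grin3a lie in no other gene, and their ratios were 0.59, 0.12 and 0.11 in FC and 0.08, 0.05 and 0.34 in CON, each of these with an interval that held 0. Over input 0 of 7 reached 1.5 times in both groups, beside 24.3% of promoters.

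Fewer H4K5ac-ChIP reads fell in the 500 bp after the TSS than in the 500 bp before it in all 7 genes in both groups, which 45.9% of protein-coding genes with 20 or more reads showed. In sum over the 7 genes the reads went from 89 before to 48 after in FC and from 72 to 41 in CON. In Grin1 they went from 15 to 2 in FC and from 8 to 6 in CON, and in Grin3a from 15 to 9 and from 16 to 3. In Grin2d they went from 17 to 11 and only from 17 to 16. The TSS here is the first annotated one. Grin2a, Grin2b, Grin2c, Grin2d and Grin3b have other TSSs of protein-coding transcripts 1789 to 4247 bp further in. IgG-IP had fewer reads after the TSS in 3 of 7 genes in both groups (24.7% of the 1171 genes with 20 or more IgG-IP reads there, a depth that none of the 7 reached) and input in 3 of 7 (34.5%), and the sums of both went the same way. Input went from 95 to 59 reads in FC and from 59 to 42 in CON, and IgG-IP from 21 to 11 and from 17 to 8.

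RefSeq promoter sequences were at hand for Grin1, Grin2c, Grin2d and Grin3b, 4 of the 7. Those of Grin1, Grin2c and Grin3b are shown since they span the range of base composition of these 4 sequences. Each runs from 250 bases before to 50 after the RefSeq TSS, 5′ to 3′ along the gene, in build GRCm38.p6, at chr2:25319138-25319437 (minus strand) for Grin1, chr11:115267194-115267493 (minus strand) for Grin2c and chr10:79970474-79970773 (plus strand) for Grin3b. Capitals mark GC boxes (GGGCGG, in either orientation), a binding sequence of Sp1, and TGACG, the core of the CREB site, here on the other strand and so printed as CGTCA.
Grin1 promoter: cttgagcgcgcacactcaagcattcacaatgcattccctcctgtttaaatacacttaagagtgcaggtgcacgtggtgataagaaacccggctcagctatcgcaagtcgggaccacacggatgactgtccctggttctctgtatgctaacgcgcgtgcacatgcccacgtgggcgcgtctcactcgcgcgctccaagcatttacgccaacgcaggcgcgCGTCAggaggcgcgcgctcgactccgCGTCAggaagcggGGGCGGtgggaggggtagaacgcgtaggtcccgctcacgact
Grin2c promoter: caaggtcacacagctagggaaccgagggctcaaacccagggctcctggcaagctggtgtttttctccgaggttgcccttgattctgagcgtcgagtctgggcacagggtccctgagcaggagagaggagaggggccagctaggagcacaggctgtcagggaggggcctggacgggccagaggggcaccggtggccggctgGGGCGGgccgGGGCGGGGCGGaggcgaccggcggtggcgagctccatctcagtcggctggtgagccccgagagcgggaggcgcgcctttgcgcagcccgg
Grin3b promoter: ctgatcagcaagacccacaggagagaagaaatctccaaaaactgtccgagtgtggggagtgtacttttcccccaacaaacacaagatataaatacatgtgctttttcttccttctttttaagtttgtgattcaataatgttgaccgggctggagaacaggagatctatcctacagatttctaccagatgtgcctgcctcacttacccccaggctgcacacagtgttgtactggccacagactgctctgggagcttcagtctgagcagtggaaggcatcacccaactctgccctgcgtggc

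The Grin1 promoter has 60.7% G and C, 33 CG dinucleotides, 1 GC box that begins 9 bases after the TSS, and TGACG on the other strand 31 and 5 bases before it. The Grin2c promoter has 70.0% G and C, 22 CG dinucleotides and 3 GC boxes, of which the last overlap by a base. The Grin3b promoter has 48.3% G and C with 3 CG dinucleotides and neither motif, and that of Grin2d 56.0% with 12 and neither. The RefSeq TSS of Grin2d lies 4247 bp after the annotated one, so this sequence is within the gene body as counted here and not in its 5 kb promoter. Of 21263 protein-coding RefSeq promoters 46.2% hold a GC box and 23.6% a TGACG, and the median has 13 CG dinucleotides. The full CREB palindrome TGACGTCA (2.23% of promoters), which contains TGACG, the NRF1 motif (1.33%) and the RE1 core (0.0705%) were in none of the 4.

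Each of the 4 sequences matched mm9 at a single place, so its reads could be counted. Grin1 had 14 reads of H4K5ac-ChIP in FC, at 8 distinct positions and strands, against 2 in CON, with 2 and 1 in IgG-IP and 4 and 5 in input. The FC over CON log2 ratio was 2.99 (0.87 to 6.17). With 1 read per position and strand the counts were 8 and 2, and the ratio of 2.24 (-0.09 to 5.51) had an interval that held 0. Within 1 kb on either side of the Grin1 TSS the counts were 37 and 35. Grin2d went the other way, with 4 reads in FC and 11 in CON and a ratio of -1.27 (-3.38 to 0.48), against 13 and 10 in input. Grin2c had 2 and 4 H4K5ac-ChIP reads against 11 and 4 in input, and Grin3b 8 and 6 against 11 and 6.

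Between FC and CON the gene bodies hardly differed. None of the 7 was higher or lower in FC by 1.2 times, where 11.1% of protein-coding genes were higher and 4.23% lower. The large genes had the narrowest intervals and both leaned to CON, Grin2b with a log2 ratio of -0.13 (-0.17 to -0.09) and Grin2a with -0.10 (-0.14 to -0.05). Their IgG-IP ratios were -0.06 and -0.03 and their input ratios 0.14 and 0.22. Grin1 gave 0.15 (-0.03 to 0.32), Grin2d 0.09 (-0.06 to 0.25), Grin2c 0.03 (-0.20 to 0.26), Grin3a -0.05 (-0.13 to 0.02) and Grin3b -0.03 (-0.40 to 0.34).

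The input libraries themselves differed between the groups, and by more. The FC over CON log2 ratio of input was 1.00 (0.58 to 1.43) in Grin3b, 0.86 (0.63 to 1.08) in Grin2c, 0.61 in Grin2d and 0.54 in Grin1, and -0.23 (-0.30 to -0.15) in Grin3a. Over 17120 protein-coding gene bodies this input ratio followed GC content with a Spearman's rho of 0.889, and the H4K5ac ratio did so with 0.447, both as descriptions across genes of shared libraries. After the input ratio was taken off, 6 of the 7 genes were lower in FC by 1.2 times, as were 49.7% of all genes, and none was higher (9.99%). After the IgG-IP ratio 2 were higher (27.5% of genes) and 1 lower (9.76%). Grin1, Grin2c, Grin2d and Grin3a changed sign when the input ratio was taken off, to -0.39, -0.82, -0.52 and 0.18. Grin2a, Grin2b and Grin3b were below 0 with either control taken off, at -0.32, -0.27 and -1.03 for input and at -0.07, -0.07 and -0.33 for IgG-IP. Relative to the median gene with the same share of G and C, Grin2b was at -0.14 and Grin2a at -0.11, and Grin3b, at -0.27, passed 1.2 times (4.97% of genes).

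In windows of 10 kb, 7 of the 41 in Grin2a and 8 of the 44 in Grin2b were lower in FC by 1.2 times, and 1 in each was higher. Over the 109 windows of the family 17 were lower and 3 higher, beside 14.8% and 9.07% of all windows in protein-coding genes. The share lower was close to the background, and the medians were -0.05 in Grin2a and -0.13 in Grin2b.

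At the promoter, Grin1 with 0.35 (-0.12 to 0.81) and Grin3b with 0.31 (-0.05 to 0.67) were higher in FC by 1.2 times, 2 of 7 beside 23.0% of promoters, and none was lower, beside 13.9%. Both intervals held 0. The reads behind them were 85 in FC and 76 in CON for Grin1 and 135 and 124 for Grin3b. With 1 read per position and strand Grin1 was at 0.24 and Grin3b alone passed (21.0% of promoters), and with the median ratio of all genes set to 0 Grin3b was at 0.26 and Grin1 alone passed (18.2%). Relative to promoters with the same share of G and C neither passed, Grin1 at 0.26 and Grin3b at 0.12, beside 17.5%. Less the input ratio, Grin1 was at 0.27 and Grin3b at -0.47, with 1 promoter higher (19.9% of promoters) and 4 lower (44.4%). Less the IgG-IP ratio 1 was higher (39.6%) and 0 were lower (24.2%).

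**Figure D5:**
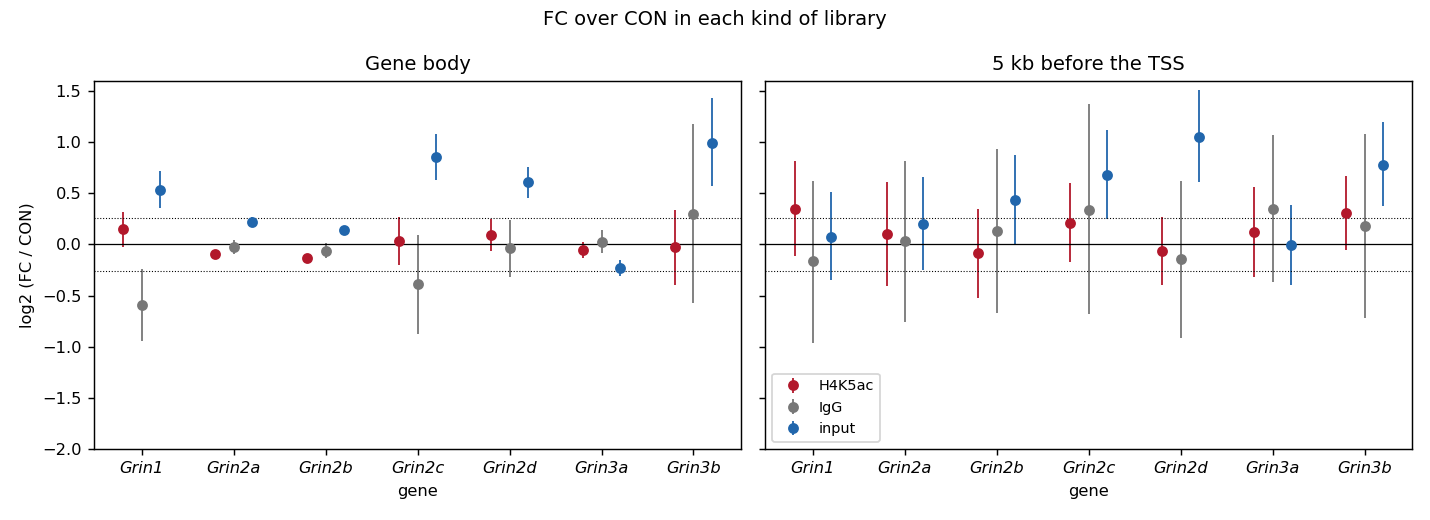
Log2 ratio of FC over CON for the gene body (left) and the 5 kb promoter (right) in H4K5ac-ChIP (red), IgG-IP (grey) and input (blue), with 95% intervals. Dotted lines mark 1.2 times in either direction. The red points of the gene bodies lie between -0.13 and 0.15, while the blue points reach 1.00.

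The proteins that bind, phosphorylate or feed the receptor were counted as a list of 32 genes. Over IgG-IP 21 of their gene bodies were at least 1.5 times denser in both groups, beside 47.7% of all protein-coding genes. Among the highest by the mean of both groups were Src, a kinase that acts on GluN2 subunits, at 2.11 (FC) and 1.84 (CON), Kif17, a motor that carries GluN2B, at 1.55 and 1.34, and the glycine transporter gene Slc6a9 at 1.67 and 1.21. Over input 8 of the 32 passed, beside 18.9%. Between groups, Lin7b was higher in FC by 1.2 times, at 0.34 with an input ratio of 0.72, and none of the list was lower. At the promoters 8 were higher in FC and 5 lower, close to the 23.0% and 13.9% of all promoters.

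Of the comparison families, 1 of 6 AMPA and delta genes (Gria1) and 3 of 5 kainate genes (Grik3, Grik4, Grik5) were 1.5 times above IgG-IP over the gene body in both groups, beside 47.7% of all genes. No gene of either family differed between FC and CON by 1.2 times over its body. At the promoter, Gria2 was lower in FC, at -0.73, and 4 kainate genes, Grik1, Grik2, Grik4 and Grik5, were higher, from 0.29 to 0.41, beside 23.0% of promoters, and of these the interval of Grik5 alone lay above 0.

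For each gene the protein-coding genes with the nearest gene body densities over the 6 libraries were found by Euclidean distance of log2 RPKM. Grin2b was nearest to Ext1, Slc35d1 and Cc2d2a, at distances of 0.09 to 0.10. Grin2a was nearest to Tmem2, Dcp2 and Nol10, and Grin3a to Ankrd5, Samd12 and Itga4. Grin2c was nearest to Slc17a7, the vesicular glutamate transporter of excitatory neurons, at 0.17, and next to the glutamate receptor gene Grm2 at 0.20 and Tbc1d17 at 0.21. Grin1 was nearest to Eif3c, Nmnat1 and Pex6, Grin2d to Shmt1, BC053749 and Folr1, and Grin3b, from few reads, to Icam5, Fam171a2 and 2310011J03Rik at 0.27 to 0.29.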

How the data were processed

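Chromatin of mouse hippocampus was analysed in 6 libraries, 1 for each group (FC, CON) and kind (H4K5ac-ChIP, IgG-IP, input), with groups taken from the labels. The authors aligned SOLiD reads to mm9 with Bioscope and deposited them as BED lines, and the deposited score is the mapping quality of a read, from 4 to 100, used only as a filter in an alternative. Each deposited line is 1 mapped read, so the values hold no normalization. Reads overlapping a region by at least 1 bp were counted and divided by its length and the reads of the library (RPKM). Depth ran from 14549689 to 45673239 reads. Genes came from GENCODE for mm9 (NCBIM37), and no read lay past the end of a chromosome of that build. Intervals were exact Poisson intervals, or exact binomial intervals for ratios, at 95%. The methods give 3 hippocampal samples per group, but 1 library per group and kind was deposited, so no p-value was computed and differences compare libraries. Ratios needed 20 reads, or 100 for FC over CON of gene bodies. Named genes were the 7 members, the AMPA, delta and kainate genes, up to 4 partners and 3 most alike genes (pseudocount of 0.05 RPKM). Members and lists were chosen with earlier results of these data known. The counting and ratios were tested on simulated data. Python 3.11.15, numpy 2.4.6, pandas 2.3.3, scipy 1.17.1 and matplotlib 3.10.9 were used. Alternatives were 1 read per position and strand, a score of at least 20, the midpoint of the read, bases outside other genes, other region and window sizes, another control, median scaling and subtraction of control or same-GC ratios. Segments, flanks, starts, windows of 10 kb, and shares of 2 kb promoters past the read thresholds were added after seeing the data. The values of 1 partner gene are not reported here.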

Additional observations from a re-analysis of the deposited data

Results flagged for a closer look

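With 1 library per group these differences were not tested. The gene body of Grin2c lay on opposite sides of input in the 2 groups, with an H4K5ac-ChIP over input log2 ratio of -0.36 (-0.57 to -0.16) in FC and 0.46 (0.21 to 0.71) in CON. Grin2d did so with -0.15 (-0.29 to -0.01) in FC and 0.37 (0.21 to 0.53) in CON. In both genes H4K5ac-ChIP differed little between groups and the input of FC was denser, by log2 ratios of 0.86 and 0.61. At promoters, H4K5ac-ChIP over input in Grin1 came to 0.16 (-0.27 to 0.58) for FC and -0.11 (-0.58 to 0.36) for CON, and in Grin2b -0.077 (-0.50 to 0.34) in FC and 0.44 (-0.01 to 0.90) in CON, all with intervals that held 0.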

How the results depend on the processing

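No paired analysis was possible because each group has a single library of each kind and the labels give no replicate numbers, and for the same reason no library could be left out. Of 964 recomputed values 846 stayed within the interval of the value in the report or within 1.5 times of a count, 112 moved and 6, all of values past 1.5 times over control or 1.2 times otherwise, changed sign. Sign changes of smaller values are counted as moved or as within the interval. Input in place of IgG-IP lowered the median gene body ratio in FC from 0.78 to 0.12, while the median in CON hardly moved. It left 0 gene bodies (18.9% of all) and 0 promoters (24.3%) at 1.5 times, and 2.30% of windows rich (4.14% of all). The signs of Grin2c (-0.36) and Grin2d (-0.15) in FC changed. Taking off the input ratio moved the median promoter ratio of FC over CON from 0.12 to -0.47. It made 6 gene bodies (49.7% of all) and 4 promoters (44.4%) lower in FC and 1 promoter higher (19.9%). It also turned Grin3b to -0.47 at the promoter, and the last over first segment ratio in CON to -0.34 in Grin2c and 0.85 in Grin3b. Taking off the IgG-IP ratio gave 2 gene bodies higher (27.5% of all) and 1 lower (9.76%), 1 promoter higher (39.6%), and 0.16 for that segment ratio in Grin3b. Same-GC genes as reference gave 1 gene body lower (4.97% of all) and 0 promoters higher (17.5%). With 1 read per position and strand the median gene body ratio in FC was 0.71 and 1 promoter was higher (21.0%), as with median scaling (1, 18.2%). Bases outside other genes gave a median gene body density of 0.511 RPKM in CON. Promoters of 2 kb gave 0.728 RPKM in FC, 1 lower (17.8% of all promoters), and 2 of 7 with over 50 reads in each group (36.1% in FC and 40.7% in CON). A factor of 3 left 0% of windows rich in both groups, beside 1.16% of all windows. The cause was not tested. Small genes and promoters have few reads and wide intervals.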
